A study of Mus musculus with 37 samples.

Results

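The genes described here are 35 mouse genes of DNA replication and of S phase, the part of the cell cycle in which DNA is copied. They were chosen by name, and each was read from 1 probe set, that with the highest mean over all 37 arrays. Of the 35, 34 had a probe set that carried their symbol alone, 32 passed the filter for testing, and Chaf1a was not analysed here. They belong to a table of 45101 probe sets, of which 25579 were tested. The samples were cultures of primary astrocytes, the star-shaped glial cells of the brain, taken from newborn 129S4/SvJae mice (strain 129) or newborn C57BL/6J mice (strain B6) of either sex. Every culture had been stably transfected with a hygromycin-resistance plasmid, pcDNA3.1-hygro, which either carried Cdca7l or was empty (the vector), so no untransfected cells were measured. Strain 129 gave 4 female and 5 male arrays with Cdca7l and 4 female and 5 male arrays with the vector. Strain B6 gave 4 female and 5 male arrays with Cdca7l and 5 of each sex with the vector. The study asked what Cdca7l changes in each sex and strain.

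Each array carries a clone label such as 4(1), and 15 labels occur with both plasmids. The sources used here do not say what the number in parentheses means, nor whether both cultures of a label came from 1 isolate. The replicates are described as independent isolates.

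A cell copies its DNA once per division. In G1, ORC, CDC6 and CDT1 load the ring-shaped helicase MCM2 to MCM7 onto origins, and geminin (Gmnn) later blocks CDT1 so that no origin is loaded again. At the start of S phase, CDC45 and the GINS complex join the ring and switch it on, after which polymerases, the sliding clamp PCNA and its loader copy both strands. Many of these genes are transcribed by E2F factors once cyclin E and its kinase have inactivated the retinoblastoma protein, and in cultured astrocytes their RNA marks cells that divide. In a bulk culture, fewer dividing cells and less RNA per cell cannot be told apart.

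RefSeq promoter windows on GRCm38.p6, from 250 bases before to 50 bases after the start, were at hand for 27 of the 35 genes. An E2F-type word (TTTCCCGC, TTTGGCGC, TTTCGCGC or TTTGCCGC, on either strand) lay in 10 of these 27, which is 37.04% (Mcm3, Mcm5, Mcm6, Mcm7, Cdt1, Cdc6, Pola1, Pold1, Dtl and Clspn). Over all 27025 genes with a window the share was 2.605%, and over all 32851 windows 2.265%. CCAAT, a box found in many promoters of growth genes, lay in 18 windows of these genes (66.67%) and in 41.058% of all genes. TTTGAA, the core of the CHR element of genes expressed in G2 and mitosis, lay in 3 (11.11%) against 20.226%. The 6 stretches below show words that lie before the start, in capitals, with up to 40 bases on each side. In Mcm5 and Mcm6 the capitals hold 2 overlapping words on opposite strands. A further word of Mcm6, nearer to its start, is not shown. The capitals begin 153 bases before the start in Mcm5, 110 in Mcm6, 165 in Mcm7, 138 in Cdc6, 138 in Pola1 and 8 in Dtl. The positions are chr8:75109316-75109407 (plus strand) for Mcm5, chr1:128359768-128359855 (minus) for Mcm6 and chr5:138172001-138172088 (minus) for Mcm7. They are chr11:98907973-98908060 (plus) for Cdc6, chrX:93632246-93632333 (minus) for Pola1 and chr1:191575545-191575592 (minus) for Dtl.
Mcm5: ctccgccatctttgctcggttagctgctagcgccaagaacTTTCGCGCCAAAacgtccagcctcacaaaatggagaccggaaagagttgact
Mcm6: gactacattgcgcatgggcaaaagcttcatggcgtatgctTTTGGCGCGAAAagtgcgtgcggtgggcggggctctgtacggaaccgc
Mcm7: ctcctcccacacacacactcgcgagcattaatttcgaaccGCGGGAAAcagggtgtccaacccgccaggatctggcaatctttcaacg
Cdc6: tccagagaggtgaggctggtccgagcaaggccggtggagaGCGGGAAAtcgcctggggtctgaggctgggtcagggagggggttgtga
Pola1: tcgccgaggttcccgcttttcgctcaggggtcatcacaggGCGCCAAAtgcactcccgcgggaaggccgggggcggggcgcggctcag
Dtl: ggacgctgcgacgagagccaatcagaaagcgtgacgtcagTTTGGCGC
A word in a window is a match of letters and does not show that a factor binds. Genes with an E2F-type word had a within-group SD of their level of 0.51 to 1.83 (log2, n = 10 genes, median 1.23). Genes with a window but no such word had 0.23 to 1.45 (n = 16 measured genes, median 0.72), so the ranges overlap. The genes without the word include Cdc45, at 0.23, Tyms, Blm and Chaf1b, which were at or below background (defined below) on most arrays. All genes with the word were above it on most arrays, so the medians are not a like comparison.

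All levels below are the deposited log2 values, in which a step of 1 is a 2-fold difference. They rank arrays for 1 gene and not genes against each other. Values at or under 3.19, the median of the whole table, were taken as background. On that rule 28 of the 34 genes were above background on all 37 arrays, Cdc6 on 36, Exo1 on 11, Chaf1b on 9, Blm on 6, and Cdc45 and Tyms on 3 each.

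2 arrays stand apart from their labels or from the rest. The upper quartile of all values was 8.36 on the array of 129 female vector 1(3) and 9.03 to 9.51 on the other 36. The array labelled B6 female vector 5.1(1) had Xist at 2.40, as on male arrays, and Eif2s3y, a Y-linked gene, at 11.91. Cdca7l itself was 4.61 ± 0.48 higher (SE, log2) with its plasmid when averaged over strain and sex, a 24.5-fold difference (limma, adjusted p = 1.246e-06). Astrocyte markers were abundant in all cultures: 8 of 10 listed genes were above background on every array, and their mean level ran from 9.08 to 12.81.

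The replication genes rose and fell together from culture to culture, and the largest spread lay inside groups, between clone labels. The mean level of the 34 genes, each centred on its own mean over all arrays, was 2.11 on 129 female Cdca7l 4(1) and 2.19 on 129 female vector 4(1). It was 1.56 and 1.68 on the arrays of clone 2(1), -0.33 and -1.10 on those of clone 1(3), and -0.95 and -0.10 on those of clone 2(3), each time Cdca7l first. Among 129 males, vector 5(2) was highest at 0.87 and the other 9 arrays lay between -0.26 and 0.21. B6 female clone 6(3) reached 0.93 with Cdca7l and 0.35 with the vector, while the other 7 B6 female arrays lay between -0.65 and -0.07. B6 males ran from -1.07 (vector 3(5)) to 0.50 (Cdca7l 4(3)).

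**Figure D1:**
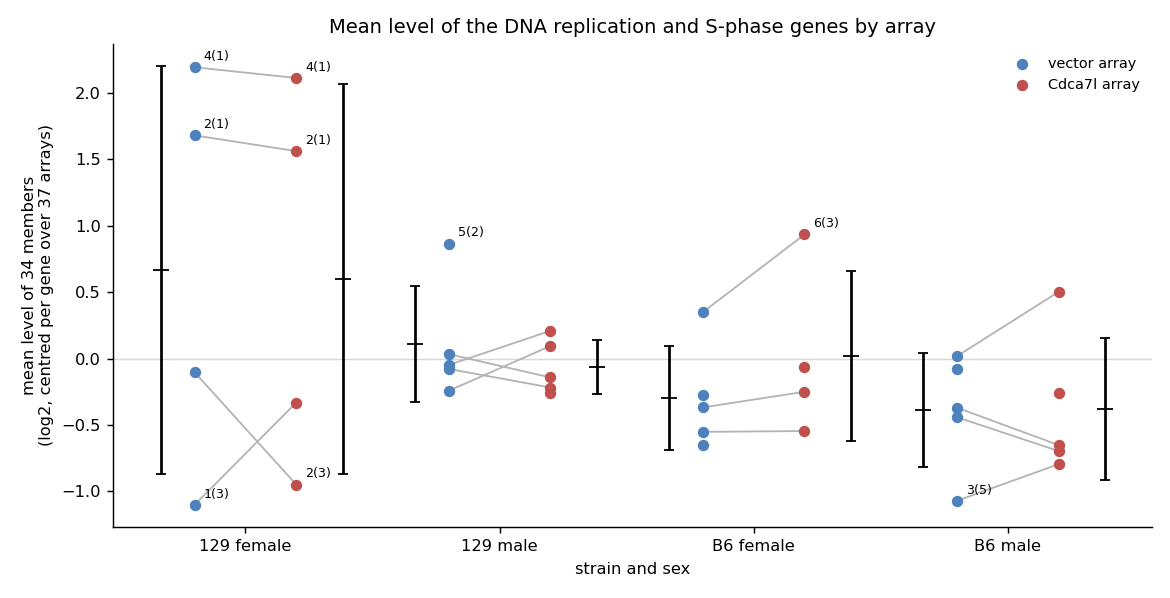
Mean level of the 34 replication and S-phase genes on each of the 37 arrays, with each gene centred on its mean over all arrays (vertical axis, log2), by strain, sex and plasmid; grey lines join arrays of 1 clone label and black bars give the group mean with SD. The 4 arrays of 129 female clones 4(1) and 2(1) lie between 1.56 and 2.19, above all others, and the SD bars of both plasmids overlap in each strain and sex.

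For 24 of the 34 genes the 4 highest of all 37 arrays were those of 129 female clones 4(1) and 2(1), both plasmids, and for 32 genes at least 3 of the 4 were. The highest array of every one of the 34 was among these 4, on Cdca7l 4(1) for 18 genes and on vector 4(1) for 16. The group means, with SD, were 0.60 ± 1.47 in 129 females with Cdca7l (n = 4) and 0.67 ± 1.54 with the vector (n = 4), against -0.06 ± 0.21 (n = 5) and 0.11 ± 0.44 (n = 5) in 129 males. B6 females had 0.02 ± 0.64 (n = 4) and -0.30 ± 0.39 (n = 5), and B6 males -0.38 ± 0.53 (n = 5) and -0.39 ± 0.43 (n = 5). The median gene had 24.5% of its variance between the 8 groups, and 1 gene, Rfc4, had more between groups than within them.

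**Figure D2:**
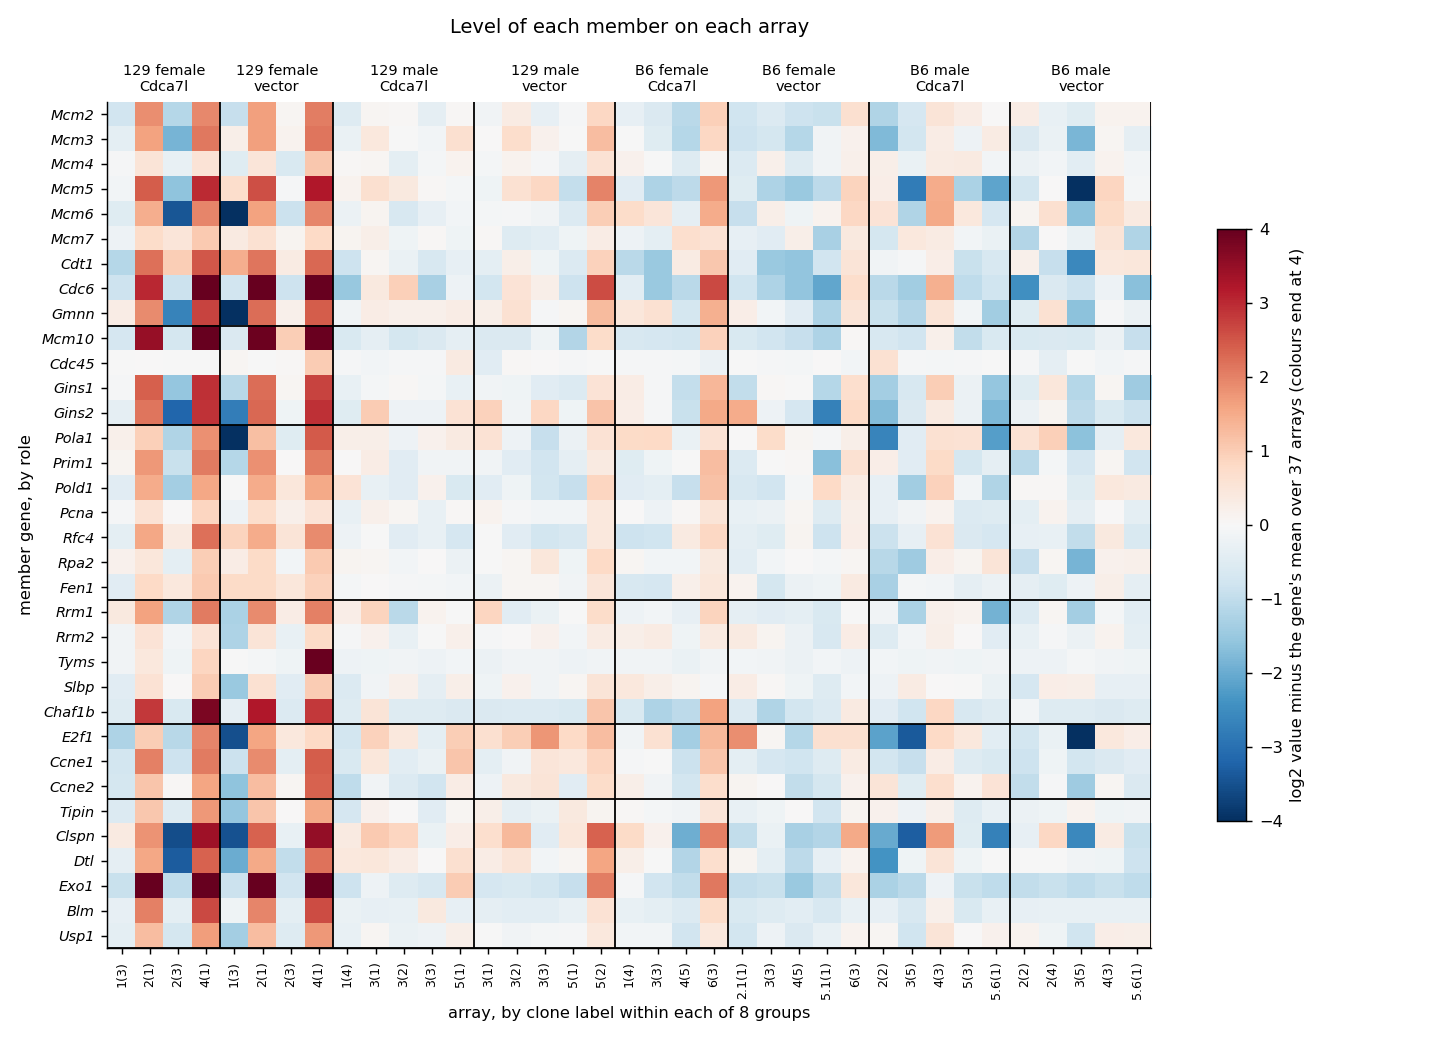
Level of each measured gene (rows, by role) on each array (columns, by group), centred on the gene's mean over all 37 arrays and coloured by the log2 difference. The columns of 129 female clones 4(1) and 2(1) are high for nearly all rows, and Cdc45 and Tyms show little colour elsewhere.

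The plasmids did not separate the 2 arrays of a clone label as much as clone labels differed. The level of single genes differed by a median of 0.28 between arrays with the same label and different plasmids (log2, 34 genes in 15 pairs). Between arrays with different labels and different plasmids, within a strain and sex, the median was 0.53 (71 pairs). In 129 females these were 0.25 and 1.46, in 129 males 0.23 and 0.35, in B6 females 0.24 and 0.57, and in B6 males 0.41 and 0.47. Each of the 34 genes had the smaller median difference within labels. Astrocyte markers differed between the same 129 female labels. The mean of their list, centred in the same way, was -2.22, -1.31, -2.74 and -1.32 on Cdca7l 4(1), Cdca7l 2(1), vector 4(1) and vector 2(1), the lowest of all 37 arrays, and the ependymal list was at -3.12, -3.04, -3.33 and -2.68. Gfap, the astrocyte intermediate filament, was at 10.02 to 11.66 on these 4 arrays and at 12.92 to 13.55 on the other 4 arrays of 129 females. The part of these differences in the replication genes was not tested.

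The licensing genes showed both wide and narrow spread. Values are given here in a fixed order of clone labels: 4(1), 2(1), 1(3), 2(3) in 129 females, 3(1), 3(2), 3(3), 5(1) and then 1(4) with Cdca7l or 5(2) with the vector in 129 males. In B6 females the order is 3(3), 4(5), 6(3) and then 1(4) with Cdca7l or 2.1(1) and 5.1(1) with the vector, and in B6 males 2(2), 3(5), 4(3), 5.6(1) and then 5(3) with Cdca7l or 2(4) with the vector. Cdc6, the ATPase that helps CDT1 load the ring, measured 10.37, 8.52, 4.70 and 4.66 with Cdca7l and 10.57, 9.61, 4.74 and 4.68 with the vector in 129 females. In 129 males it measured 5.91, 6.46, 4.20, 5.32 and 4.00 with Cdca7l and 4.78, 6.05, 5.74, 4.70 and 8.12 with the vector. The B6 female values were 4.03, 4.43, 8.15 and 5.10 with Cdca7l and 4.27, 3.94, 6.20, 4.72 and 3.44 with the vector, and the B6 male values 4.44, 4.14, 6.95, 4.71 and 4.48 with Cdca7l and 3.05, 4.68, 5.29, 3.84 and 4.93 with the vector. The 129 female arrays split into 4 at 8.52 or more and 4 at 4.74 or less, and values of 6.95 or more outside 129 females were found on 129 male vector 5(2), B6 female Cdca7l 6(3) and B6 male Cdca7l 4(3). Its within-group SD was 1.76, and 1.24 over the 29 arrays outside 129 females.

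Mcm5, a subunit of the ring, measured 11.93, 11.39, 8.84 and 7.34 with Cdca7l and 12.15, 11.52, 9.68 and 8.90 with the vector in 129 females and 9.59, 9.34, 9.01, 8.88 and 9.09 with Cdca7l and 8.77, 9.57, 9.78, 8.0 and 10.94 with the vector in 129 males. B6 females gave 7.73, 7.90, 10.71 and 8.50 with Cdca7l and 7.74, 7.48, 9.85, 8.48 and 7.91 with the vector, and B6 males 9.24, 6.16, 10.43, 6.86 and 7.70 with Cdca7l and 8.24, 4.11, 9.81, 8.89 and 8.99 with the vector. B6 male vector 3(5) was lowest of all at 4.11, and the high arrays were again those of clones 4(1) and 2(1). Mcm2, another subunit, was at 12.45, 12.40, 9.77 and 9.39 with Cdca7l and 12.58, 12.16, 9.62 and 10.59 with the vector in 129 females, and at 9.31 to 11.49 on the other 29 arrays. Mcm4 moved least of the ring genes: it was at 13.28, 13.26, 12.69 and 12.43 with Cdca7l and 13.80, 13.22, 12.24 and 12.14 with the vector in 129 females and at 12.20 to 13.31 elsewhere, with a within-group SD of 0.39. Gmnn, the inhibitor of CDT1, was at 12.06, 11.27, 9.66 and 6.70 with Cdca7l and 11.78, 11.59, 3.51 and 9.55 with the vector in 129 females, where the value of 3.51 belonged to the array with the low upper quartile, and at 7.72 to 10.78 elsewhere. Its within-group SD fell from 1.58 to 0.68 without 129 females. Cdt1 was at 12.94, 12.65, 9.30 and 11.43 with Cdca7l and 12.74, 12.58, 11.91 and 10.79 with the vector in 129 females, at 9.64 to 11.37 in 129 males, at 8.87 to 11.55 in B6 females and at 7.87 to 10.92 in B6 males, so the ranges overlap. The remaining ring genes had within-group SDs of 0.90 (Mcm3), 1.41 (Mcm6) and 0.51 (Mcm7).

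Among the genes that switch the helicase on, Mcm10, which binds the active helicase, stayed at 5.68 or less outside 129 females. It measured 9.10, 8.25, 4.10 and 4.07 with Cdca7l and 8.73, 8.70, 4.18 and 5.76 with the vector in 129 females, and 3.54 to 5.68 on the other 29 arrays. Clones 4(1) and 2(1) were thus at 8.25 or more and no other array above 5.76. Gins2, a GINS subunit, was at 10.60, 9.83, 7.35 and 4.52 with Cdca7l and 10.63, 10.01, 4.92 and 7.54 with the vector in 129 females and at 5.01 to 9.20 elsewhere (within-group SD 1.48). Gins1 had an SD of 1.11. The chosen probe set of Cdc45 was at or near background on all arrays: 34 of 37 values were at or below 3.19, and the 3 others were 4.03 (129 female vector 4(1)), 3.38 (129 male Cdca7l 5(1)) and 3.61 (B6 male Cdca7l 2(2)). It therefore does not show how Cdc45 varied. A second probe set of Cdc45, with a lower mean, was above background on 5 arrays, those of 129 female clones 4(1) and 2(1) with both plasmids and B6 female Cdca7l 6(3), and ran from 1.73 to 7.19.

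Among genes of DNA synthesis, the chosen probe sets for the clamp, its loader and the fragment nuclease varied less than those for the polymerases. Pcna, the sliding clamp, was at 13.29, 13.02, 12.39 and 12.47 with Cdca7l and 13.00, 13.15, 12.24 and 12.66 with the vector in 129 females and at 11.90 to 12.97 elsewhere, with a within-group SD of 0.30. Fen1, the nuclease that trims lagging-strand fragments, was at 13.63, 13.37, 12.14 and 13.03 with Cdca7l and 13.52, 13.35, 13.37 and 13.04 with the vector in 129 females. It was at 12.37 to 13.08 in 129 males, 11.89 to 13.03 in B6 females and 11.29 to 12.82 in B6 males. Rfc4, a subunit of the clamp loader, was at 11.75, 11.10, 9.18 and 9.93 with Cdca7l and 11.45, 11.03, 10.46 and 10.07 with the vector in 129 females, and at 8.84 to 9.99 in 129 males, 8.73 to 10.38 in B6 females and 8.56 to 10.14 in B6 males. All arrays of clones 4(1) and 2(1) were above the highest array of every other group, while the lowest 129 female array, at 9.18, lay inside the other groups' ranges. Pola1 and Prim1, which start each new strand, had SDs of 1.27 and 0.85, Pold1, the catalytic subunit of polymerase delta, 0.81, and Rpa2, which coats single-stranded DNA, 0.56. Second probe sets of Fen1 and Rfc4 ran more widely, from 7.45 to 12.06 and from 4.96 to 11.71. The order of these genes by spread is therefore uncertain.

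Of the genes for nucleotides and chromatin, Rrm2, the regulated subunit of ribonucleotide reductase, was at 14.14, 14.14, 13.47 and 13.48 with Cdca7l and 14.35, 14.12, 12.37 and 13.31 with the vector in 129 females and at 12.96 to 13.96 elsewhere. On the chosen probe sets its partner Rrm1 varied more (SD 0.89, against 0.40 for Rrm2). Other probe sets of Rrm2 ran from 6.82 to 13.21 and from 2.78 to 8.89, and another of Rrm1 from 2.85 to 8.27. Which of these genes varied more is therefore uncertain. Slbp, which binds the stem-loop of histone mRNAs, had an SD of 0.50. The chosen probe set of Tyms, thymidylate synthase, was at or below background on all but 3 arrays, where it reached 6.75 on 129 female vector 4(1). None of the 4 probe sets of Tyms passed the filter, and 1 more, shared with another gene, was left out. These values therefore do not show how Tyms varied. Chaf1b, a subunit of the chromatin assembly factor, was above background on 9 arrays and Blm, a helicase that resolves joined DNA, on 6, among them in both cases the 4 arrays of 129 female clones 4(1) and 2(1).

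E2f1, an activator of S-phase genes, had only 2 of the 4 arrays of 129 female clones 4(1) and 2(1) among its 4 highest. It measured 10.79, 9.82, 7.58 and 7.73 with Cdca7l and 9.62, 10.41, 5.31 and 9.25 with the vector in 129 females, 9.76, 9.25, 8.43, 9.81 and 8.10 with Cdca7l and 9.46, 9.81, 10.59, 9.63 and 10.07 with the vector in 129 males. The B6 female values were 9.45, 7.48, 10.14 and 8.70 with Cdca7l and 8.92, 7.69, 9.47, 10.70 and 9.48 with the vector, and the B6 male values 6.70, 5.47, 9.63, 8.42 and 9.27 with Cdca7l and 8.11, 4.79, 9.25, 9.11 and 8.55 with the vector. The lowest values were 4.79 and 5.47, on both arrays of B6 male clone 3(5), and 5.31 on 129 female vector 1(3), while high values occurred in all strain and sex groups. Ccne1, which encodes cyclin E1, was at 9.50, 9.43, 6.68 and 6.60 with Cdca7l and 9.83, 9.32, 6.55 and 7.02 with the vector in 129 females and at 6.5 to 8.52 elsewhere. Ccne2, for cyclin E2, measured 10.66, 10.18, 8.37 and 9.11 with Cdca7l and 11.42, 10.32, 7.46 and 9.15 with the vector in 129 females and 8.95, 8.53, 8.32, 9.37 and 8.05 with Cdca7l and 8.88, 9.47, 9.58, 8.64 and 9.80 with the vector in 129 males. B6 females gave 8.92, 8.33, 9.78 and 9.32 with Cdca7l and 9.10, 8.08, 9.25, 9.19 and 8.38 with the vector, and B6 males 9.58, 8.60, 9.76, 9.63 and 9.21 with Cdca7l and 8.09, 7.66, 9.14, 8.48 and 9.02 with the vector. In B6 males all 4 shared labels were higher with Cdca7l, by 0.62 to 1.49, while in 129 males 2 of the 4 shared labels were higher and 2 lower.

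The genes that guard forks and repair DNA ranged in within-group SD from 0.64 to 1.83. Clspn, the adaptor that helps ATR activate CHK1, measured 10.44, 8.84, 7.43 and 3.51 with Cdca7l and 10.57, 9.42, 3.57 and 6.75 with the vector in 129 females and 8.11, 7.91, 6.81, 7.32 and 7.43 with Cdca7l and 7.72, 8.37, 6.62, 7.52 and 9.42 with the vector in 129 males. The B6 female values were 7.23, 5.11, 9.08 and 7.84 with Cdca7l and 6.78, 5.77, 8.57, 6.09 and 5.88 with the vector, and the B6 male values 5.04, 3.77, 8.75, 4.36 and 6.59 with Cdca7l and 6.72, 4.50, 7.38, 6.16 and 7.90 with the vector. Its within-group SD, 1.83, was the largest of the 34, and stayed at 1.35 without 129 females. Exo1, an exonuclease of mismatch and break repair, measured 8.43, 7.51, 2.55 and 2.42 with Cdca7l and 8.44, 7.89, 2.60 and 2.67 with the vector in 129 females. Outside them it passed 3.19 on 7 arrays, with 5.57 on B6 female Cdca7l 6(3), 5.48 on 129 male vector 5(2) and 4.46 on 129 male Cdca7l 5(1) the highest, and the lowest value was 1.96. Dtl, which directs CDT1 to degradation, had an SD of 1.19, Usp1, which removes ubiquitin from PCNA, 0.69, and Tipin, a fork protein, 0.64.

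**Figure D3:**
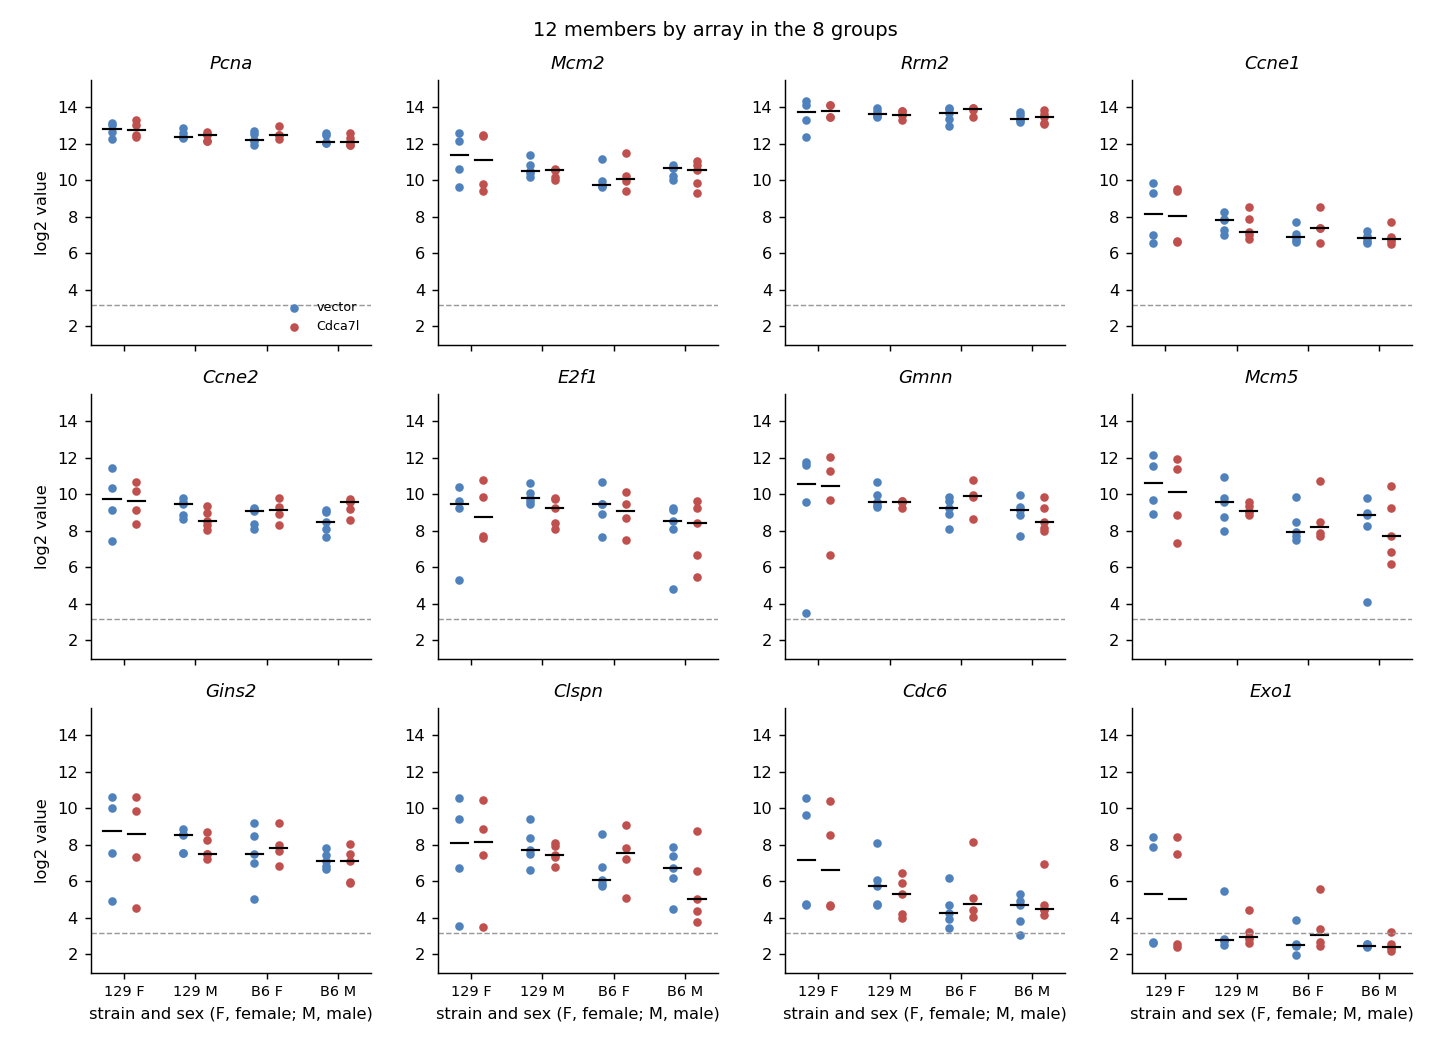
Log2 level of 12 genes on each of the 37 arrays, by strain, sex and plasmid, with black lines at the group medians and a dashed line at the background of 3.19. In Exo1 and Cdc6 the 129 female arrays fall into 4 high and 4 low values, while Pcna stays between 11.90 and 13.29 on all arrays.

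The median within-group SD was 0.87 over the 34 genes and 13 genes were above 1. Over the 29 arrays outside 129 females the median was 0.58 and 4 genes were above 1 (Mcm5, Clspn, E2f1 and Cdc6). Taken as deviations from the group means over 37 arrays, each gene's correlation with the mean of the others had a median of 0.85, and 27 of 34 were over 0.7. Over the 29 arrays outside 129 females the median was 0.67. Mcm10 and Usp1 were highest at 0.94 (Spearman 0.84 in both, 0.92 and 0.91 without the 2 farthest arrays). Cdc45 was lowest at 0.17 (Spearman -0.01), Mcm7 was at 0.42 (Spearman 0.41) and Fen1 at 0.46 (Spearman 0.47). The arrays share a platform and may share normalization, so these are descriptions. For 21 of the genes a further 28 probe sets were tested, and their deviations had a median r of 0.82 with those of the chosen one (24 were over 0.5). A second probe set of Slbp was at -0.41 and one of Dtl at 0.14, so Slbp and Dtl are uncertain.

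Probe sets were also ranked by how close their deviations lay to the mean of the 34 genes. Outside the 35 genes and all other gene lists used here, the closest were named for the kinetochore proteins Cenpw (r = 0.95, Spearman 0.89), Cenpn (0.95 and 0.93 for its 2 probe sets), Cenpp and Cenpi, and for Melk, Fancb, Ercc6l, Lrr1 and BC055324. All had r of 0.93 to 0.95 over 37 arrays and 0.76 to 0.87 without 129 females. Of the 100 closest of 21715 probe sets, 25 belonged to the 35 genes, 15 to a list of 50 other replication genes and 3 to a list of 20 genes of G2 and mitosis. The mean of the latter list, as deviations, had r = 0.87 with that of the 34 genes.

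**Figure D4:**
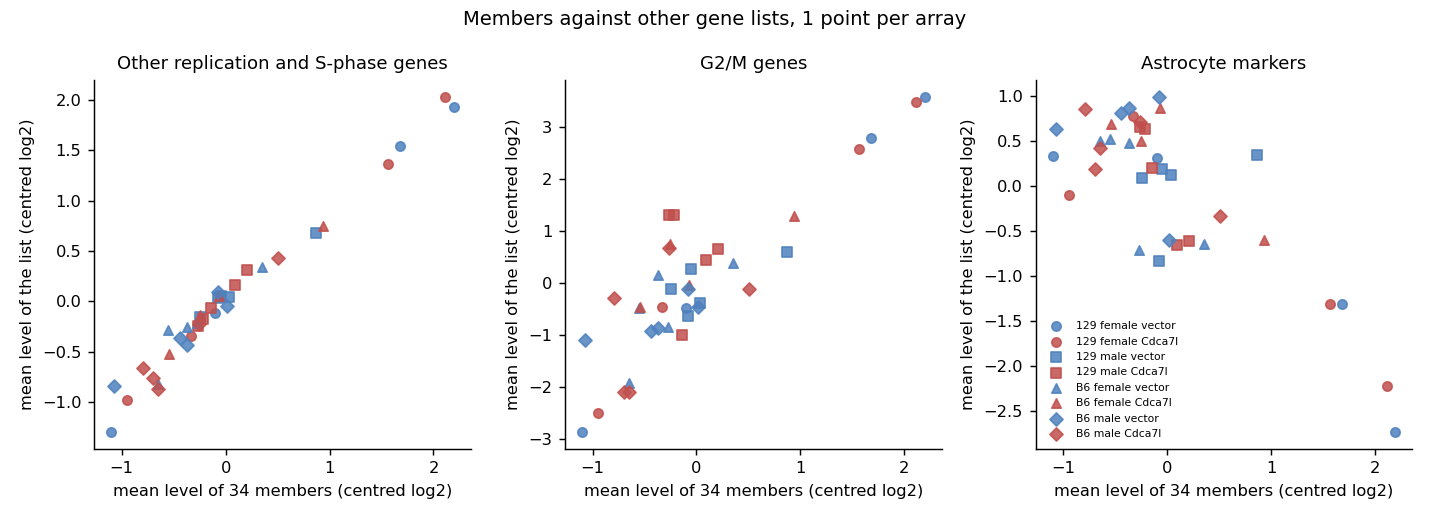
Mean centred level of the 34 genes on each array (horizontal axis, log2) against that of the other replication genes, the G2 and mitosis genes and the astrocyte markers (vertical axes, log2). The arrays of 129 female clones 4(1) and 2(1) lie at the right, high on the first 2 lists and low on the third.

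No replication gene passed the test for a change with Cdca7l. Of 32 tested, 0 passed at an adjusted p under 0.05 (limma) when averaged over strain and sex, where 0.00782% of all probe sets did. In 129 females, 129 males, B6 females and B6 males separately 0 passed as well, and 0% of all probe sets did. Cdca7l itself, 3.87 to 5.10 higher in each of these 4 comparisons, did not pass there either (adjusted p of 0.157 to 1, limma), so they say little about smaller changes. At an unadjusted p under 0.05 the count was again 0 of 32 in each of the 5 comparisons, where 1.27%, 1.97%, 1.65%, 0.555% and 2.1% of all probe sets had one. Averaged, the 32 differences had a median of 0.06, against 0.02 over all tested probe sets, and ran from -0.25 (Pold1) to 0.29 (Prim1). The 95% interval lay inside ±1 for 24 of the 32, and the widest intervals reached from -1.34 to 1.27, so differences of the size of 2-fold were not excluded for the other 8. In the 4 groups taken one at a time 6, 10, 6 and 10 intervals lay inside ±1.

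The smallest p-values belonged to Mcm7, at 0.26 ± 0.17 (SE, log2; adjusted p = 0.9995), then Fen1 at -0.16, Prim1 at 0.29, Pold1 at -0.25 and Slbp at 0.14. In 129 females they were Mcm3 at -0.68, Slbp 0.37, Pold1 -0.56, Fen1 -0.28 and Rrm2 0.27, where Slbp and Rrm2 turn to -0.09 and -0.12 without vector 1(3). In 129 males they were Ccne2 at -0.63, E2f1 -0.84, Rpa2 -0.26, Slbp -0.22 and Cdt1 -0.40. B6 females had Mcm7 at 0.47, Pcna 0.24, Rrm2 0.23, Slbp 0.28 and Prim1 0.46, and B6 males Ccne2 at 0.88 ± 0.50 (unadjusted p = 0.0858), Mcm7 0.36, Mcm4 0.26, Pola1 -0.81 and Pold1 -0.49. None of these passed. The medians were -0.02 in 129 females, -0.15 in 129 males, 0.31 in B6 females and 0.02 in B6 males. Single arrays moved them: in 129 females the median was -0.67 without vector 1(3) and 0.53 without vector 4(1), in 129 males -0.01 without vector 5(2), in B6 females 0.05 without Cdca7l 6(3) and in B6 males -0.16 without Cdca7l 4(3). The differences of effects were not called either: 0 of 32 passed for males minus females (0% of all; 0 of 32 and 0.719% of all at an unadjusted p under 0.05), with a median of -0.21 and Gmnn at -0.99, and 0 of 32 for B6 minus 129 (0% of all; 0 of 32 and 1.68% of all at an unadjusted p under 0.05), with a median of 0.21 and Ccne2 at 0.90. Microglial markers moved with these groups: the 9 tested were all lower with Cdca7l in 129 males (median -2.37) and B6 females (-1.66) and all higher in B6 males (1.09), and their part in the results was not tested.

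**Figure D5:**
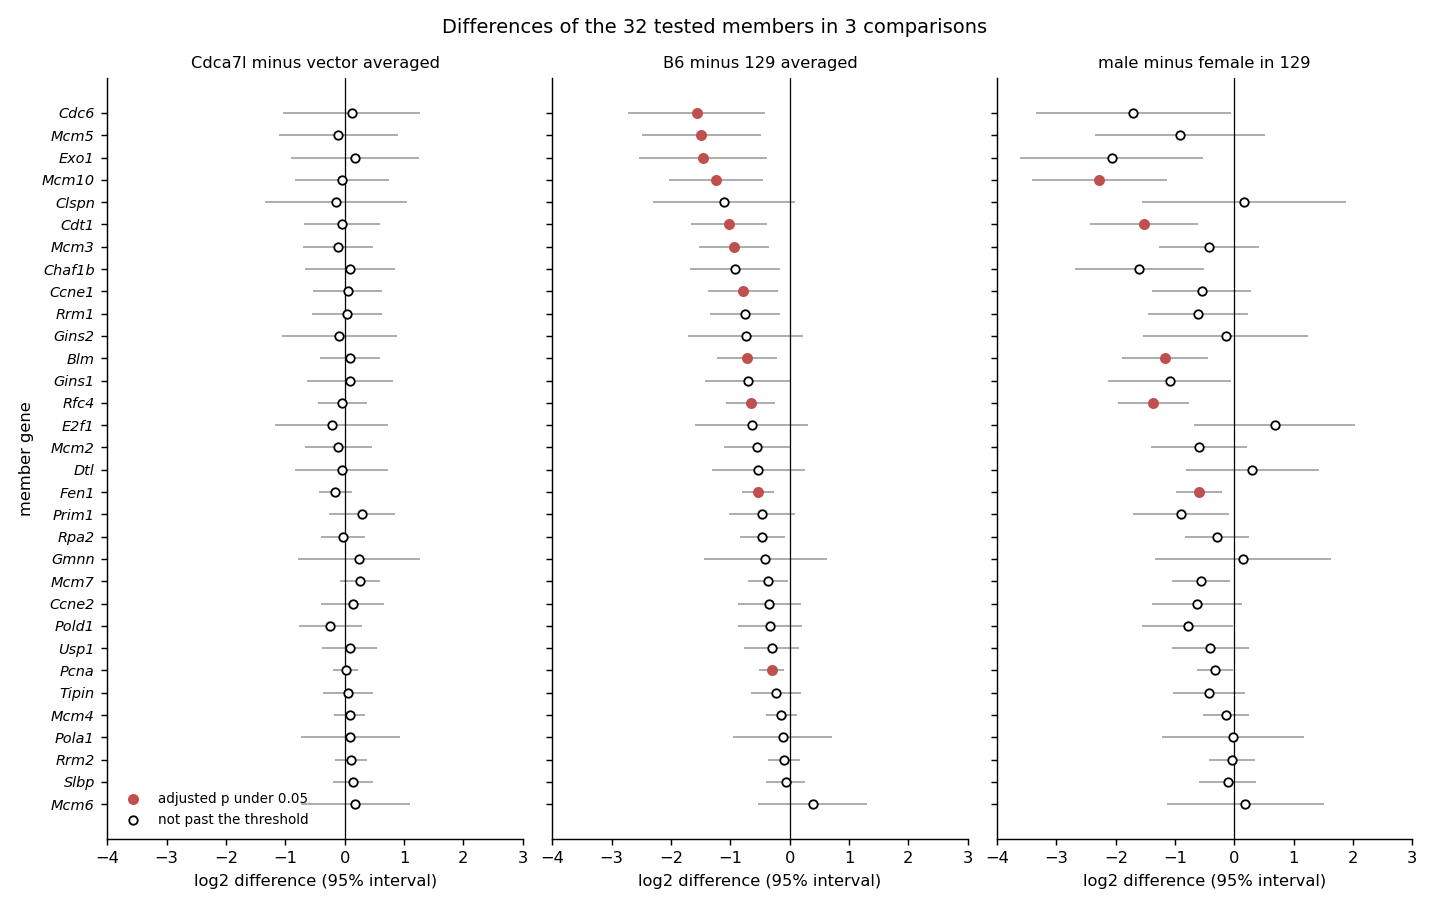
Log2 difference of each of the 32 tested genes with its 95% interval, for Cdca7l minus vector and B6 minus 129, both averaged over the other factors, and for male minus female in 129; filled points passed at an adjusted p under 0.05. In the first comparison every interval includes 0, while in the second 15 lie below it, and 11 and 5 points are filled in the second and the third.

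The replication genes that differed between strains were lower in B6 than in 129 cultures. Averaged over sex and plasmid, 11 of 32 passed and all 11 were lower in B6, where 25.2% of all probe sets passed and 10.6% passed as lower. The licensing genes Cdt1 (-1.02 ± 0.31, adjusted p = 0.0168), Cdc6 (-1.57, 0.0395), Mcm3 (-0.93, 0.0181) and Mcm5 (-1.49, 0.0258) fell, as did the helicase factor Mcm10 (-1.24, 0.0201). Of the synthesis genes, Fen1 (-0.53 ± 0.13, 0.00461), Rfc4 (-0.66, 0.0186) and Pcna (-0.30, 0.0344) fell, and with them Ccne1 (-0.78, 0.0444) and the repair genes Exo1 (-1.46, 0.0401) and Blm (-0.72, 0.0313). Exo1 was above background on 11 arrays, 4 of them of 129 females, and Blm on 6, also 4 of them of 129 females, so both passed the filter through few arrays and the sizes of their differences are not exact. Without these 2 dim genes the calls were 9. At an unadjusted p under 0.05 there were 15, where 38.6% of all probe sets had one. The median of the 32 was -0.54, against 0.00 over all tested probe sets, and Mcm6 was the one positive difference at 0.39 ± 0.45.

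These calls rested on 129 females and on single clone labels. Without 129 female clone 4(1), or without 2(1), 1 of the 32 passed, Fen1, where 18.2% and 18.6% of all probe sets did. Without clone 1(3) 21 passed and without 2(3) 18, where 34.2% and 27.8% of all did. Without B6 female clones 3(3), 4(5) and 6(3) it was 3, 5 and 15, where 18%, 20.5% and 29.3% of all passed. The share over all probe sets thus moved in the same direction. Without the 129 female vector 1(3) array 14 passed, without the array labelled B6 female vector 5.1(1) 7, and without both 13. Of all 25579 probe sets 7381, 6127 and 7070 passed in these fits. The fit counts both arrays of a label as separate samples, so its p-values may be too small here. With the clone label as a random block, which lets both arrays of a label share their deviation, 8 passed, and Pcna, Cdc6 and Ccne1 were lost. Of all 25579 probe sets 4249 passed in that fit. Taken by sex, a comparison chosen after seeing these values, 7 of 32 passed in females (17.6% of all probe sets), namely Rfc4 (-1.25), Mcm10 (-2.33), Cdt1 (-1.86), Fen1 (-0.74), Blm (-1.30), Chaf1b (-1.75) and Exo1 (-2.21). The last 3 were at or under background on most B6 female arrays, so the sizes of their differences are not exact, and 4 calls remain without them. With the random block 6 passed, and Exo1 was lost, while 2113 of all 25579 probe sets passed. In males 0 passed (10.5% of all; median -0.22), where E2f1 was at -1.56 (adjusted p = 0.113). The difference between the sexes itself passed for 0 of 32 and 0% of all probe sets, and Rfc4 had the smallest adjusted p (0.197, limma).

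Sex differences passed for 5 genes in 129 and for 0 when averaged or in B6, and as given above the difference between strains in the sex effect passed for none. Averaged over strain, 0 of 32 passed (0.321% of all), 10 of 32 had an unadjusted p under 0.05 (18.1% of all), the median was -0.38, and Rfc4 had the smallest p at -0.78 (adjusted p = 0.0826). In 129, 5 of 32 passed, all lower in males, where 8.77% of all probe sets passed and 2.71% as lower: Rfc4 (-1.37 ± 0.29, adjusted p = 0.0074), Mcm10 (-2.28), Cdt1 (-1.53), Blm (-1.17) and Fen1 (-0.60). Blm was above background on 4 of 8 arrays of 129 females and 1 of 10 of 129 males, so 4 calls remain without it. In the same comparison Dcn (5.16), Cfap126 (3.69), Foxj1 (2.82), Notch3 (1.35) and Slc1a3 (1.32), markers of fibroblasts, ependymal cells, pericytes and astrocytes, were higher in males, and their part in the result was not tested. Without 129 female clone 4(1) 0 passed (1.32% of all) and without 2(1) 1 (2.37%), while 14 passed without 1(3) (19.2%) and 11 without 2(3) (12.8%). With the random block 1 passed, Rfc4, while 165 of all 25579 probe sets did. At an unadjusted p under 0.05 there were 13 in 129 (26.9% of all). In B6, 0 of 32 passed (0.0352% of all) and 0 had an unadjusted p under 0.05 (3.76% of all), with a median of -0.20 and E2f1 lowest at -1.17 (unadjusted p = 0.0813).

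Other genes of the same pathway, from a list of 50 of which 44 were tested, gave 11 calls between strains, 10 of them lower in B6 and a median of -0.53. Of all probe sets 25.2% were called and 10.6% as lower. The share of this list called in either direction was near the background, and the share called as lower was above it. Wdhd1, a polymerase alpha partner, was at -1.87, Cdc25a, a phosphatase that activates CDK2, at -1.22, and Rnaseh2a, which removes RNA from DNA, at -1.10, while Pold3, a subunit of polymerase delta, was higher in B6 at 0.86. No gene of this list passed for Cdca7l. Of 19 tested genes of G2 and mitosis, 4 were lower in B6 (Plk1 -1.71, Aurka -1.68, Birc5 -1.15, Ttk -2.03), and no other was called, against the same 25.2% and 10.6%. For Cdca7l 0 of the 19 passed. Averaged, all 19 differences were positive with a median of 0.35, but 7 were negative in 129 females (median 0.05) and 11 in B6 males (median -0.06). In 129 males 2 were negative (median 0.70) and in B6 females 0 (median 0.75). Of 9 tested cell-cycle brakes, a list of CDK inhibitors and retinoblastoma proteins, 1 was called between strains, against 25.2% of all probe sets. It was Cdkn1b, which encodes the CDK inhibitor p27, at 0.68 higher in B6. The 9 had a median of 0.17, with 7 positive and 2 negative.

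Markers of other cells moved between strains in the same comparison, in which 25.2% of all probe sets were called. Of 9 fibroblast and meningeal markers, 4 were lower in B6 (Col1a1 -3.02, Col1a2 -2.75, Col3a1 -5.43, Dcn -3.04) and Islr was higher, and the mean level of the list was 7.01 to 11.27 in 129 and 5.85 to 7.87 in B6. Of 8 ependymal markers 4 were higher (Foxj1, Ccdc153, Dynlrb2, Cfap126), with list means of 2.88 to 7.87 in 129 and 4.77 to 8.92 in B6. Of 10 astrocyte markers 3 were higher (Slc1a3 0.96, Aqp4 0.93, Sox9 0.77), and of 9 microglial markers 0 were called. Of 5 neuron markers 4 were called (Tubb3 2.37, Gad1 2.61, Map2 0.86, Syt1 -2.40), of 5 of the oligodendrocyte lineage 2 (Olig2 1.08, Cnp 0.81) and of 2 endothelial markers 1 (Flt1 -2.07). Of 6 markers of pericytes and smooth muscle 2 were called as higher (Rgs5 2.11, Notch3 0.95), but 4 of the 6 differences were negative (median -0.13). The part of all these markers in the replication genes' differences was not tested.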

How the data were processed

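Expression was measured on 37 single-colour arrays of mouse astrocyte cultures. The authors deposited log2 values, made with GCRMA and Partek 6.5 per the submitters' processing notes, which do not say if all arrays were normalized at once. The values, from 1.17 to 15.26, were used as deposited. For arrays there is no read depth, and precision is limited by how many there are. GCRMA subtracts a modelled background, so values of dim genes have no reliable order.

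The 35 genes, the comparisons and all gene lists were chosen with earlier results of these data known. For each gene the probe set with 1 symbol and the highest mean was used (28 genes had several). Of the probe sets, 34958 carried 1 symbol, 932 several and 9211 none. Those above the table's median of 3.19 on at least 4 arrays were tested; 64 controls were left out. All arrays entered 1 limma 3.58.1 fit (R 4.3.3) with 8 group means, 29 residual degrees of freedom, 11 comparisons and 3 added later, Benjamini-Hochberg adjusted over 25579 probe sets at 0.05. The fit was tested on simulated data. Deviations of arrays with the same label correlated at 0.43 to 0.77 in B6 females and 0.38 to 0.57 in B6 males, so labels pair there, and at 0.06 to 0.72 in 129 females and -0.09 to 0.62 in 129 males, where 1 pair each was under 0.1 and the labels were not taken as pairs. Every gene is named; values by array are given for the 6 with the largest and the 3 with the smallest within-group SD, 7 fixed genes and genes called in a comparison that carry the result, and in a comparison all calls or the 5 smallest p-values. Alternatives covered the filter, variance prior, normalization, array weights, blocks, probe sets and left-out arrays. A list of histone genes matched no symbol. Promoter windows are RefSeq's for GRCm38.p6. Python 3.11.15 with numpy 2.4.6, pandas 2.3.3 and scipy 1.17.1 did the rest.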

Additional observations from a re-analysis of the deposited data

Results flagged for a closer look

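Within each group of 4 or 5 arrays, the highest or lowest array was set against the others for the 34 genes and their mean level. In 27 of 280 such checks, over 16 genes and the mean level, 1 array lay far from the rest, where chance gives about 1 in 20. All values are log2.

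On 129 male vector 5(2) the mean level of the genes was high at 0.87, and so were Exo1 at 5.48, Usp1 at 11.46, Chaf1b at 4.04 and Blm at 3.32. On B6 male vector 3(5), Mcm5 was low at 4.11, Mcm6 at 8.38 and E2f1 at 4.79, and Tipin stood apart at 10.45. B6 female clone 6(3) was high for Mcm2 with the vector (11.16) and Mcm10 with Cdca7l (5.68), and B6 male Cdca7l 4(3) was high for Cdc6 (6.95) and Chaf1b (3.75). B6 male Cdca7l 2(2) was low for Fen1 (11.29) and Dtl (6.78), and B6 male vector 5.6(1) stood apart for Dtl at 8.33. Gmnn was low on 129 male Cdca7l 1(4) at 9.22. Tyms reached 6.75 on 129 female vector 4(1).

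The other values lay near or below the background of 3.19. Cdc45 was apart at 4.03 on 129 female vector 4(1), 3.38 on 129 male Cdca7l 5(1), 2.57 on 129 male vector 3(1), 3.61 on B6 male Cdca7l 2(2) and 2.65 on B6 male vector 2(4). Tyms was apart at 2.53 on B6 female Cdca7l 4(5), Chaf1b at 3.43 on 129 male Cdca7l 3(1) and 2.80 on B6 male vector 2(2), and Blm at 3.14 on 129 male Cdca7l 3(3).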

How the results depend on the processing

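The count of 0 genes called for Cdca7l held in every setting run, in all 5 comparisons and both differences of effects. The strain count of 11 was 7 without the filter on dim probe sets (5432 of 45037 probe sets were then called) and 30 with array weights (14556 of 25579). It was 7 when the array labelled B6 female vector 5.1(1) was left out (6127 of 25579). The sex count averaged over strains was 29 with array weights (11621 of 25579 probe sets) and 1 without both arrays that stand apart (260 of 25579). In 129 the sex count of 5 was 10 with arrays centred on their median, 31 with array weights (median -1.37) and 1 with the compared groups alone. Of all 25579 probe sets 2758, 14656 and 1135 were called in these settings. The strain count in females, 7, was 16 without 129 female vector 1(3), where the count over all probe sets was not taken. With 1 array or clone label left out the counts ran from 1 to 21 for strain, 0 to 6 for sex and 0 to 14 for sex in 129. At the highest counts, without 129 female clone 1(3), 34.2%, 7.27% and 19.2% of all probe sets were called. The single arrays that brought the strain count to 7 or fewer were Cdca7l 4(1) and 2(1) (5 each) and vector 4(1) and 2(1) (6 each) of 129 females, B6 female Cdca7l 4(5), 3(3) and 1(4) (7, 6 and 7), 129 male Cdca7l 3(1) and 129 male vector 5(2) (7 each), and vector 5.1(1). These fits called 5308 to 6213 of all 25579 probe sets. The cause of these shifts was not tested.

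A random replicate block on clone labels gave 8 genes called between strains, 1 between sexes in 129 and 0 for Cdca7l. Of all probe sets it called 4249, 165 and, for Cdca7l averaged, 2. A fixed replicate block gave 0 calls for Cdca7l (averaged median 0.06) and no strain or sex value, since labels lie within strain and sex.

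Of 61 values of named genes, 797 settings kept direction and side of the threshold, 34 fell below it, 8 passed it and 15 turned sign. All that turned were uncalled Cdca7l effects. Slbp averaged became -0.0029 without both arrays; in 129 females Fen1 became 0.0021 with array weights and 0.0223 without Cdca7l 1(3), Mcm3 0.0636 without Cdca7l 2(3), and Slbp -0.0945 and Rrm2 -0.116 without vector 1(3). Slbp in 129 males became 0.1812 as a mean of probe sets. With each array left out in turn these 129 female values ran from -1.2522 to 0.0636 (Mcm3), -0.0945 to 0.736 (Slbp), -0.4748 to 0.0223 (Fen1) and -0.116 to 0.5429 (Rrm2). With array weights Mcm7, Pcna and Prim1 in B6 females became -0.0918, -0.0255 and -0.1299. Gmnn in males minus females became 0.0721 without both arrays.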
